A study of Homo sapiens with 12 samples.

Results

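Mitochondrial ribosomal protein genes were described across 6 sorted populations, the CD133+ and the CD133- fraction of 3 gastric cancer cell lines. They were taken as every gene of the expression table whose symbol is MRPL or MRPS followed by a number and, where present, a letter from A to C. This rule found 76 genes among 34595 with a value, of which 47 carry large subunit symbols (MRPL) and 29 small subunit symbols (MRPS). The lines were KATO-III, SNU-216 and SNU-601, kept under the same culture conditions with no drug or gene alteration added, and the text deposited with the series names SNU201 where the array labels name SNU-216. Cells were stained with an antibody against CD133, and gates took from the CD133+ cells the 10% that stained brightest and from the CD133- cells the 6% that stained least. Each of the 6 populations was measured on 2 Illumina HT-12 v3 BeadChip arrays. Cells between the gates were left out, so the fractions are the ends of each line's CD133 range. Whether the 2 arrays of a population came from separate sorts is not stated, so the p-values below measure the spread between these arrays, which may be technical.

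The mitochondrial ribosome translates the few mRNAs that mitochondrial DNA encodes, all of them for subunits of the respiratory chain and of ATP synthase. Its rRNAs come from mitochondrial DNA, whereas all of its proteins are encoded in the nucleus, made in the cytosol and imported. Many of these proteins have a homologue in the bacterial ribosome and others are found only in mitochondrial ribosomes. CD133, encoded by PROM1, is a surface glycoprotein used to enrich cells with stem-like properties in gastric and other cancers. The comparisons below ask which of these genes differ between the fractions in each line, whether the difference is shared by the lines, and how the lines differ in level.

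Intensities are background-subtracted and quantile-normalized, on a linear scale without unit, and belong to a gene's own probes, so levels are compared between populations and not between genes. Values under a floor of 32.7 were set to it before log2 was taken, and 20147 genes that lay above it on at least 2 arrays were tested. All 76 genes lay above the floor on all 12 arrays, with a lowest value of 103 (MRPL10). PROM1 read 9513 and 8847 on the CD133+ arrays and 4056 and 4493 on the CD133- arrays in KATO-III, 9273 and 8773 on the CD133+ arrays and 2232 and 2219 on the CD133- arrays in SNU-216, and 4877 and 4677 on the CD133+ arrays and 1315 and 1324 on the CD133- arrays in SNU-601. It was therefore higher in the CD133+ fraction on every array of every line. The 9 epithelial marker symbols examined, of which TACSTD1 is an older symbol of EPCAM, lay above the floor on all arrays. Those that never did were PTPRC and CD3E of 4 haematopoietic markers, COL3A1 and DCN of 4 fibroblast markers, and all 4 endothelial markers. The summed fibroblast markers ranged from 24.1 to 201 on the 12 arrays. In a sorted population, a change in the share of cells that express a gene and a change in RNA per cell cannot be told apart. The correlation of log2 values between the 2 arrays of a population was 0.993 to 0.995. The members' median SD between them was 0.079 (log2) against 0.13 over all tested genes, which unlike the members include genes near the floor.

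Promoter sequences were taken from RefSeq (GRCh38.p14, 250 bases before to 50 after the start) for the 68 members that matched, 67 by symbol and 1 by synonym. The synonym was MRPS36, now named KGD4 and assigned to the 2-oxoglutarate dehydrogenase complex. By its symbol it stays in all counts of members here. MRPL2, MRPL10, MRPL13, MRPL15, MRPL21, MRPL23, MRPL35 and MRPS28 were not in the table. Exact letters were searched on both strands for factors known to act on nuclear genes of mitochondrial proteins: CCGGAAG for the ETS family, which includes GABPA, GCATGCGC for NRF1, AAGATGGCG for YY1, and CACGTG for the E-box. An ETS match stood in 28 of 68 promoters (41.2%) against 10.3% of all 35116 promoters of the same length, and a YY1 match in 13 (19.1%) against 1.75%. NRF1 letters were found in 8.82% against 3.05%, the E-box in 10.3% against 7.26%, and at least 1 of the 4 in 61.8% against 19.8%. Among nuclear genes of oxidative phosphorylation the shares were 32.2% for ETS, 13.6% for YY1 and 18.6% for NRF1. Among cytosolic ribosomal protein genes they were 34.9%, 7.94% and 4.76%. In the 30 promoters of members higher in CD133+ cells of KATO-III the ETS share was 36.7% and the YY1 share 23.3%, in the 8 of members lower there 62.5% and 12.5%, and in the 30 of members not called there 40.0% and 16.7%. These matches describe the letters and do not show that a factor binds. The 4 promoters below belong to members called between the fractions over all lines and holding a match, shown 5′ to 3′ with the matches in capitals. In MRPL17 these are 3 NRF1 matches, of which 2 overlap on opposite strands and the last lies on the strand opposite to the printed one. In MRPL42 the capitals are a YY1 match. In MRPS18C they are an ETS, an E-box and an NRF1 match in that order, the NRF1 match on the opposite strand. In MRPS23 they are an ETS match on the opposite strand.
MRPL17 (chr11:6683291-6683590, - strand): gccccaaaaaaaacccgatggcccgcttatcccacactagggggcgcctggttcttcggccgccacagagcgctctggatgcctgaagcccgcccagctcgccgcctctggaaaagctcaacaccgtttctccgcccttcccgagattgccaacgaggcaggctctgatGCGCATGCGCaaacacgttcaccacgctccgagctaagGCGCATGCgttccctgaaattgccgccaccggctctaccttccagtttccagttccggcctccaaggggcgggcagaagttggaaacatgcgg
MRPL42 (chr12:93467264-93467563, + strand): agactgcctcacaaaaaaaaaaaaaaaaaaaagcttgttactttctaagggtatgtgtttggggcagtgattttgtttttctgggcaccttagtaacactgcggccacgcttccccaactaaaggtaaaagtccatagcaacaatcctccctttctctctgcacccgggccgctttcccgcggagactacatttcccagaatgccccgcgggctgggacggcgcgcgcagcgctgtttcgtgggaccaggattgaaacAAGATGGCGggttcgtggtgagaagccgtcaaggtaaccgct
MRPS18C (chr4:83455808-83456107, + strand): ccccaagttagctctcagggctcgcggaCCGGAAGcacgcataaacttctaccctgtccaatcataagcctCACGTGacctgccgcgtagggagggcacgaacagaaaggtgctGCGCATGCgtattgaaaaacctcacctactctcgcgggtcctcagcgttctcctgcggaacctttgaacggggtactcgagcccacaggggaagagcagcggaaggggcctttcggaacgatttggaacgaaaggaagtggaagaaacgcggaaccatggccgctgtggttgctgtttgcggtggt
MRPS23 (chr17:57849995-57850294, - strand): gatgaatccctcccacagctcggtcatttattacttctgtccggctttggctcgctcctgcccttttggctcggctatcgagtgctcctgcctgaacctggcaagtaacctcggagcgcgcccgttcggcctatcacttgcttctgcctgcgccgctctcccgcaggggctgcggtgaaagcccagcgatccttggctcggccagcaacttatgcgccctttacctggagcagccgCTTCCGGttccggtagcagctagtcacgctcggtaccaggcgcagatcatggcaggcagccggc

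**Figure D1:**
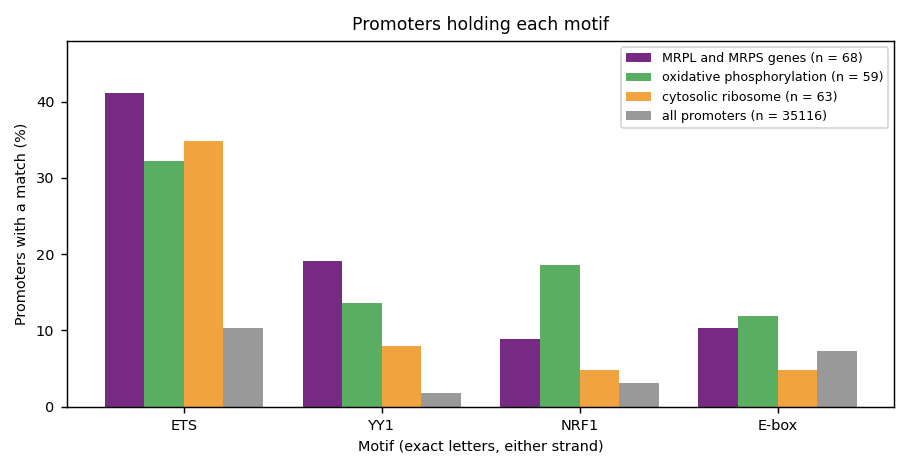
Percent of promoters (y axis) that hold each motif (x axis) by exact letters on either strand, for 68 promoters of MRPL and MRPS genes, 59 of oxidative phosphorylation genes, 63 of cytosolic ribosomal protein genes and all 35116 promoters. ETS and YY1 letters were found in 41.2% and 19.1% of the mitochondrial ribosomal promoters against 10.3% and 1.75% of all promoters.

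In KATO-III, a line from a signet ring cell gastric carcinoma, mitochondrial ribosomal protein genes were more often higher than lower in CD133+ cells. By limma, 37 of the 76 rose and 8 fell, against 18.7% of all tested genes higher and 20.6% lower, which for the members is 48.7% and 10.5%. Among the 11674 genes that, like the members, lay above the floor on all arrays, the shares were 24.0% higher and 27.4% lower. The members' median log2 change was 0.22, with 53 of 76 above 0, and the median over all tested genes was 0.00. By symbol, MRPL genes rose in 27 of 47 cases and fell in 3 (median 0.24), and MRPS genes rose in 10 of 29 and fell in 5 (median 0.09). Genes with a bacterial homologue rose in 22 of 48 and fell in 7, and genes without one rose in 15 of 28 and fell in 1. The 38 members of lower mean intensity had a median log2 change of 0.33 with 22 higher and 3 lower, and the 38 brighter ones 0.09 with 15 higher and 5 lower. The summed haematopoietic markers also moved with the fractions in this line, at 849 and 885 on the CD133+ arrays and 1202 and 1255 on the CD133- arrays, with CD14 up to 1242 and the defining marker PTPRC under the floor on all of them, and in the other lines they ranged from 19.3 to 86.1. Their part in the result was not tested. Without KATO-III CD133+ replicate 1 the count of lower members was 3, and without KATO-III CD133- replicate 2 it was 5.

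MRPL1, a protein of the stalk beside the site where tRNA leaves the ribosome, read 1830.4 and 2093 on the CD133+ arrays and 601 and 541 on the CD133- arrays in KATO-III. The fractions did not overlap, and the CD133+ level was 3.43-fold the CD133- level (log2 change 1.78 ± 0.12 (SE), adjusted p = 9.43e-06). MRPL19, which lies at the interface of the subunits, read 1525 and 1459 on the CD133+ arrays and 552 and 502 on the CD133- arrays. Its fractions were likewise apart, at 2.84-fold (log2 change 1.50 ± 0.18 (SE), adjusted p = 0.000185). MRPL15, a large subunit core protein with a bacterial homologue, gave 1078 and 891 on the CD133+ arrays and 546 and 408 on the CD133- arrays, so each CD133+ array lay above both CD133- arrays (log2 change 1.05 ± 0.14 (SE), adjusted p = 0.00038). MRPL48, a large subunit protein, gave 1105 and 1071 on the CD133+ arrays and 502 and 595 on the CD133- arrays, also with no overlap (log2 change 0.99 ± 0.21 (SE), adjusted p = 0.00506). In SNU-601 these 4 genes were not called, with log2 changes of 0.25, -0.01, 0.14 and -0.29 in the same order.

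The falls in KATO-III were smaller. MRPL20, a protein needed early in assembly of the bacterial large subunit, read 4206 and 3709.7 on the CD133+ arrays and 5336 and 5558 on the CD133- arrays, 0.725 times the CD133- level (log2 change -0.46 ± 0.07 (SE), adjusted p = 0.000671). MRPS26, a small subunit protein, read 2214 and 2196 on the CD133+ arrays and 2636 and 2932 on the CD133- arrays, again without overlap (log2 change -0.33 ± 0.05 (SE), adjusted p = 0.000947). MRPS16, which has a bacterial homologue in the small subunit, gave 2529 and 2804 on the CD133+ arrays and 3106 and 3529 on the CD133- arrays (log2 change -0.31 ± 0.08 (SE), adjusted p = 0.0139). MRPS18A, which despite its symbol sits in the large subunit, gave 1854 and 1936 on the CD133+ arrays and 2419 and 2127 on the CD133- arrays (log2 change -0.26 ± 0.08 (SE), adjusted p = 0.0292). For both, the gap between the fractions was narrower than that between the 2 CD133- arrays. The call of MRPS16 was lost without KATO-III CD133+ replicate 1 or KATO-III CD133- replicate 2, with adjusted p up to 0.113. That of MRPS18A was lost without KATO-III CD133+ replicate 1, KATO-III CD133+ replicate 2 or KATO-III CD133- replicate 1, with adjusted p up to 0.193.

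**Figure D2:**
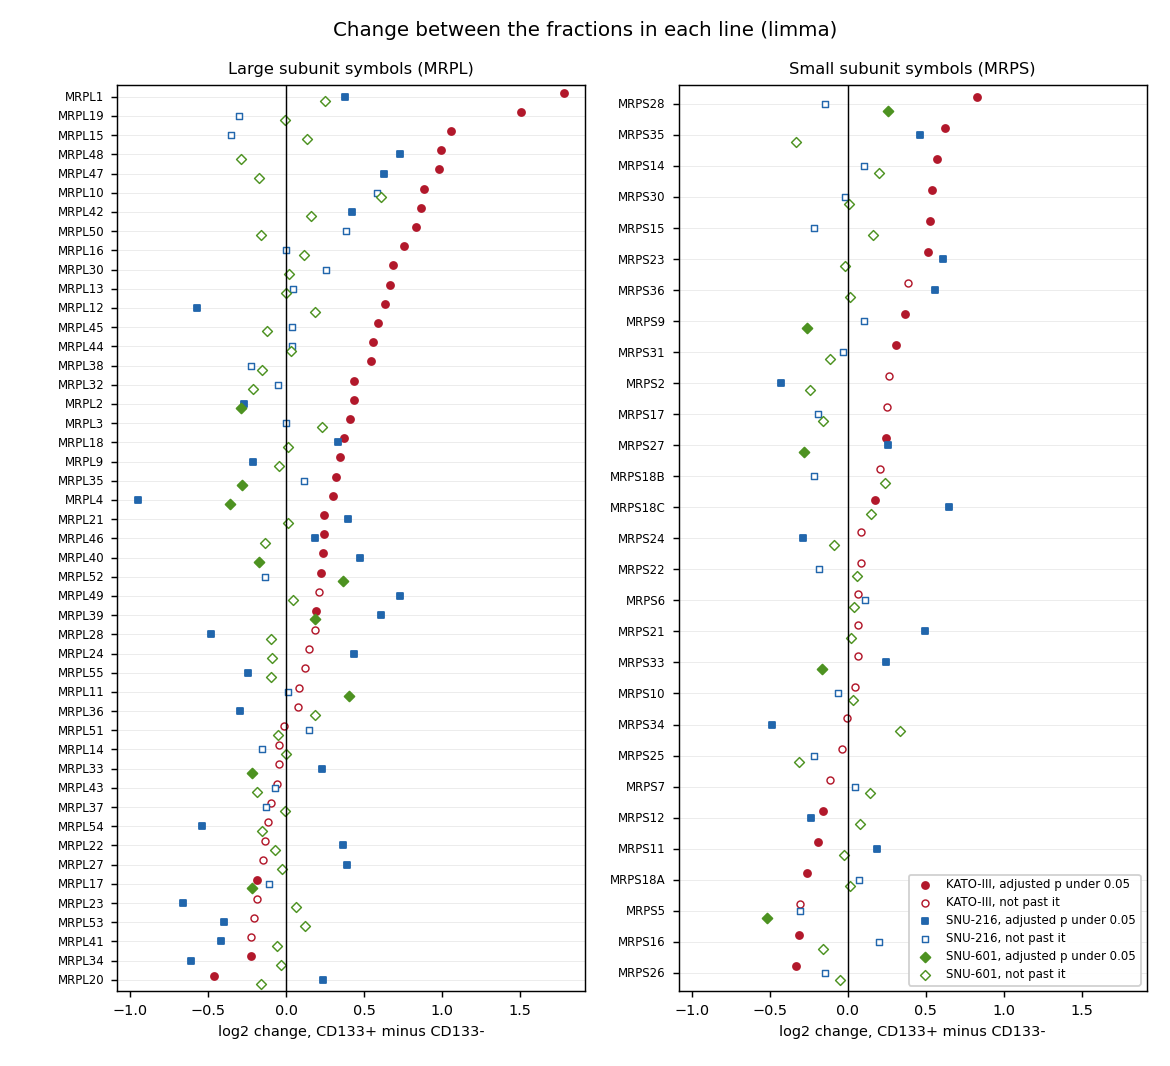
log2 change of each gene, CD133+ minus CD133- (x axis), in KATO-III (circles), SNU-216 (squares) and SNU-601 (diamonds), with filled symbols for limma adjusted p under 0.05. Genes (y axis) are ordered by their change in KATO-III, where 37 were called higher, while the SNU-216 and SNU-601 symbols lie on both sides of 0 along the order.

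In SNU-216 the genes went both ways. By limma 23 (30.3%) rose and 16 (21.1%) fell, against 14.6% of all tested genes higher and 14.0% lower. Among genes above the floor on all arrays the shares were 20.1% and 20.0%, so the share of members that fell was near theirs. The members' median log2 change was 0.01, and -0.03 without SNU-216 CD133+ replicate 1. MRPL genes rose in 15 of 47 and fell in 12, and MRPS genes rose in 8 of 29 and fell in 4. Genes without a bacterial homologue rose in 11 of 28 and fell in 4, and those with one rose in 12 of 48 and fell in 12. The 11, like the 8 MRPS genes that rose, include MRPS36 (log2 change 0.56, adjusted p = 0.0199 by limma). Without SNU-216 CD133- replicate 2 the count of higher members was 15, and without SNU-216 CD133+ replicate 2 or SNU-216 CD133- replicate 1 the count of lower members was 10.

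MRPL48 was again among those that rose most in SNU-216, with 443 and 341 on the CD133+ arrays and 241 and 227 on the CD133- arrays (log2 change 0.73 ± 0.21 (SE), adjusted p = 0.0288). The gap between its CD133+ arrays was about as wide as that between the lower of them and the CD133- arrays, and the call was lost on leaving out SNU-216 CD133+ replicate 1, either SNU-216 CD133- replicate, or either KATO-III CD133+ replicate, with adjusted p up to 0.193. MRPL49, a large subunit protein without a bacterial homologue, read 4130.4 and 3797 on the CD133+ arrays and 2418 and 2348 on the CD133- arrays, 1.66-fold and without overlap (log2 change 0.73 ± 0.08 (SE), adjusted p = 0.000196). MRPS18C, which corresponds to a bacterial small subunit protein, read 6345 and 6214 on the CD133+ arrays and 3863 and 4154 on the CD133- arrays (log2 change 0.65 ± 0.05 (SE), adjusted p = 3.41e-05). Its 2 arrays of each fraction were close and the fractions far apart. MRPL47, which sits near the exit of the peptide tunnel, gave 507 and 601 on the CD133+ arrays and 365 and 351 on the CD133- arrays (log2 change 0.63 ± 0.09 (SE), adjusted p = 0.000993).

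The genes that fell most in SNU-216 include a pair that line or border the peptide exit tunnel. MRPL4 read 365 and 338 on the CD133+ arrays and 691 and 666 on the CD133- arrays, 0.518 times the CD133- level (log2 change -0.95 ± 0.07 (SE), adjusted p = 3.89e-05). MRPL23 read 5625 and 5755 on the CD133+ arrays and 8391 and 9607 on the CD133- arrays (log2 change -0.66 ± 0.09 (SE), adjusted p = 0.000697). In both genes all CD133- arrays of the line lay above the CD133+ arrays. MRPL34, a small basic protein of the large subunit core, read 2222 and 2238 on the CD133+ arrays and 3347 and 3466 on the CD133- arrays (log2 change -0.61 ± 0.06 (SE), adjusted p = 0.000108). MRPL12, which forms the stalk that recruits translation factors and also binds the mitochondrial RNA polymerase, read 2694 and 2754 on the CD133+ arrays and 3997 and 4107 on the CD133- arrays (log2 change -0.57 ± 0.09 (SE), adjusted p = 0.00133). In KATO-III the same gene went the other way, with 7533 and 7113 on the CD133+ arrays and 4877 and 4566 on the CD133- arrays (log2 change 0.63 ± 0.09 (SE), adjusted p = 0.000466).

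In SNU-601 few members were called, 4 higher and 10 lower, against 8.59% of all tested genes higher and 7.78% lower, and 12.0% and 10.4% of genes above the floor on all arrays. For the members these counts are 5.26% and 13.2%. The median log2 change was -0.02, and it was 0.01 when each array was centred on its own median. MRPL11, at the base of the factor-binding stalk, read 2334 and 2324 on the CD133+ arrays and 1706 and 1819.6 on the CD133- arrays (log2 change 0.40 ± 0.07 (SE), adjusted p = 0.00603). MRPL52, found only in mitochondrial ribosomes, read 1419 and 1536 on the CD133+ arrays and 1134 and 1163 on the CD133- arrays (log2 change 0.36 ± 0.07 (SE), adjusted p = 0.0123). In both genes the fractions did not overlap. MRPS28 gave 1341 and 1364 on the CD133+ arrays and 1151 and 1114 on the CD133- arrays (log2 change 0.26 ± 0.07 (SE), adjusted p = 0.0475), and its call was lost on leaving out 10 of the 12 arrays, each SNU-601 array included, with adjusted p up to 0.185.

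MRPS5, which in bacteria helps to keep decoding accurate, was the member that fell most in SNU-601, with 1581 and 1776 on the CD133+ arrays and 2287 and 2514 on the CD133- arrays, 0.699 times the CD133- level (log2 change -0.52 ± 0.12 (SE), adjusted p = 0.0222). MRPL4, lower here as in SNU-216, read 346 and 369.6 on the CD133+ arrays and 471 and 447 on the CD133- arrays (log2 change -0.36 ± 0.07 (SE), adjusted p = 0.0116). Neither gene's fractions overlapped. MRPL2, next to the peptidyl transferase centre, gave 2569 and 2869 on the CD133+ arrays and 3119 and 3521 on the CD133- arrays (log2 change -0.29 ± 0.07 (SE), adjusted p = 0.025), and MRPL35, of the large subunit core, 2288 and 2330 on the CD133+ arrays and 2745 and 2877 on the CD133- arrays (log2 change -0.28 ± 0.05 (SE), adjusted p = 0.00488). The counts in SNU-601 depended on single arrays. The count of lower members was 2 without SNU-601 CD133+ replicate 1, 3 without SNU-601 CD133+ replicate 2 or SNU-601 CD133- replicate 2, and 5 without SNU-601 CD133- replicate 1. The count of higher members was 1 without SNU-601 CD133+ replicate 2 and 2 without SNU-601 CD133- replicate 1, either KATO-III CD133- replicate or either SNU-216 CD133+ replicate. MRPL52 lost its call without SNU-601 CD133+ replicate 2 or either SNU-601 CD133- replicate (adjusted p up to 0.0786 by limma), and MRPS5 without any 1 of the 4 SNU-601 arrays (up to 0.132). MRPL4 lost it without SNU-601 replicate 1 of either fraction (up to 0.0619), and MRPL2 without SNU-601 CD133+ replicate 1 or SNU-601 CD133- replicate 2 (up to 0.142).

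**Figure D3:**
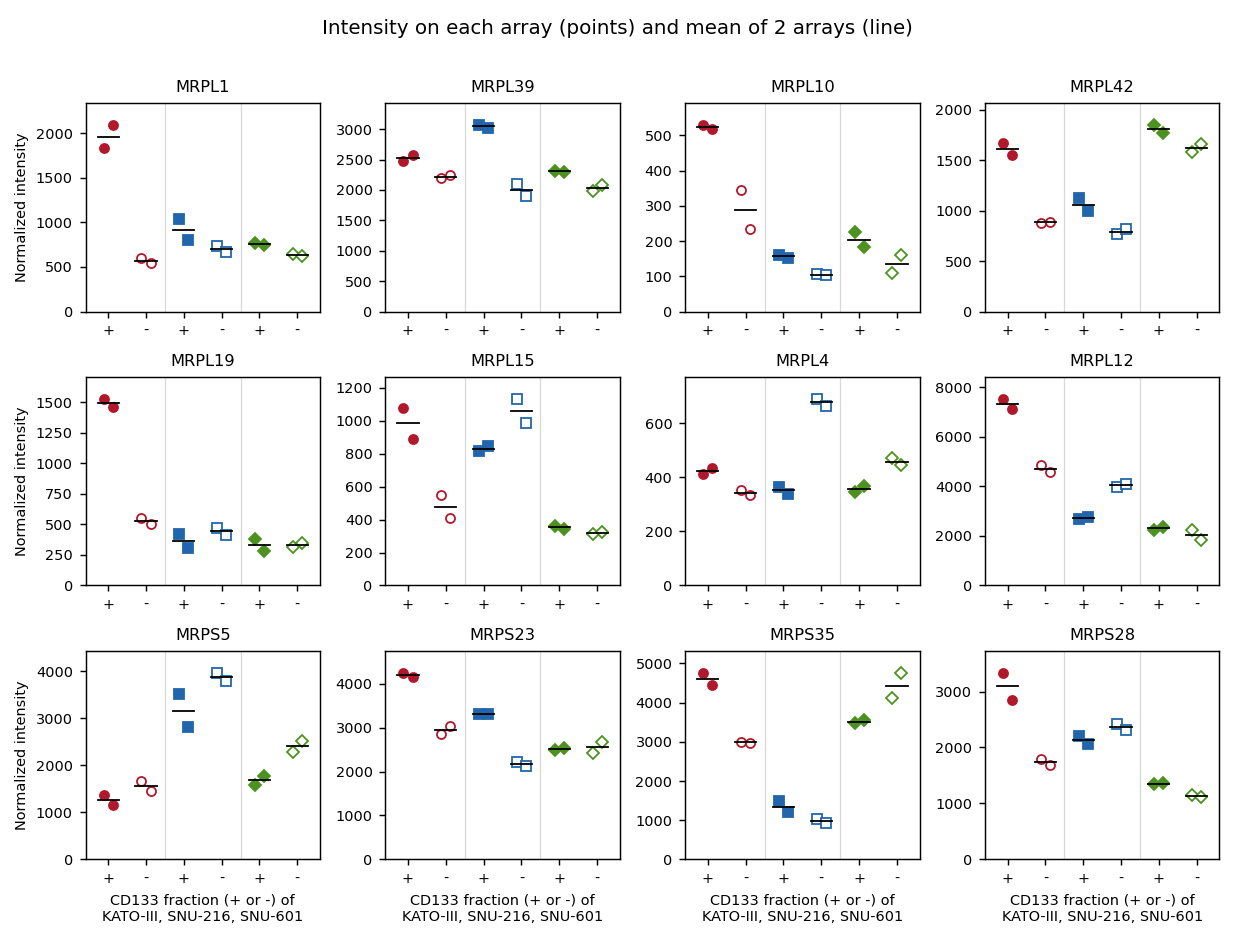
Normalized intensity (y axis, linear from 0) of 12 named genes on each array (points) in the CD133+ (filled) and CD133- (open) fractions (x axis) of KATO-III (red circles), SNU-216 (blue squares) and SNU-601 (green diamonds), with the mean of 2 arrays as a line. MRPL39 was higher in CD133+ cells in each line, whereas MRPL12 and MRPL4 changed direction between KATO-III and SNU-216.

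The change between the fractions differed between the lines for most members. The limma interaction of line and fraction passed the threshold for 59 of 76 (77.6%), against 44.4% of all tested genes and 58.5% of those above the floor on all arrays. The same gene could move in opposite directions: 12 members were called higher in 1 line and lower in another, which were MRPL2, MRPL4, MRPL9, MRPL12, MRPL20, MRPL33, MRPL35, MRPL40, MRPS9, MRPS11, MRPS27 and MRPS33. Their share of 15.8% lay between the 10.9% of all tested genes and the 17.1% of genes above the floor on all arrays. MRPL4 rose in KATO-III, with 414 and 434 on the CD133+ arrays and 353 and 334 on the CD133- arrays (log2 change 0.30 ± 0.07 (SE), adjusted p = 0.0101), and fell in the other lines (interaction adjusted p = 8.38e-05). MRPL2 followed the same pattern, with log2 changes of 0.43, -0.27 and -0.29 in KATO-III, SNU-216 and SNU-601 (interaction adjusted p = 0.000642). MRPL20 fell in KATO-III and rose in SNU-216 by 0.24 (adjusted p = 0.03 by limma, interaction 0.00123). MRPL35 rose by 0.32 in KATO-III and fell by 0.28 in SNU-601 on the log2 scale (interaction adjusted p = 0.000377).

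Across lines, 13 members (17.1%) were called higher in at least 2 lines and lower in none, against 5.95% of all tested genes and 8.99% of those above the floor on all arrays. Lower in at least 2 and higher in none were 3 members (3.95%), MRPL17, MRPL34 and MRPS12, against 6.28% and 9.15%. The log2 change was above 0 in all 3 lines for 16 members (21.1%), against 9.76% and 12.6%, and below 0 in all for 10 (13.2%), against 13.7% and 13.8%. No line called 11 members (14.5%, against 43.8% and 29.5%), and 1 line called 37 (48.7%, against 33.1% and 35.3%). In 2 lines 23 were called (30.3%, against 18.1% and 26.9%), and in all 3 lines 5 (6.58%, against 4.97% and 8.25%). Of the 5, MRPL39 was called with the same sign in each line, which for the members is 1.32% and so near the 1.06% of all tested genes and the 1.71% of those above the floor on all arrays. MRPL39, which resembles a threonyl-tRNA synthetase in part of its sequence, read 2483 and 2577 on the CD133+ arrays and 2191 and 2247 on the CD133- arrays in KATO-III (log2 change 0.19 ± 0.05 (SE), adjusted p = 0.0203). In SNU-216 it read 3068 and 3027 on the CD133+ arrays and 2099 and 1902 on the CD133- arrays (log2 change 0.61 ± 0.05 (SE), adjusted p = 7.24e-05), and in SNU-601 2312 and 2295 on the CD133+ arrays and 1978 and 2079.9 on the CD133- arrays (log2 change 0.18 ± 0.05 (SE), adjusted p = 0.0477). Every CD133+ array, the lowest at 2295, lay above every CD133- array, the highest at 2247. Its call in SNU-601 was lost on leaving out 10 of the 12 arrays, 8 of them from the CD133+ and CD133- fractions of SNU-601 and KATO-III and the other two from SNU-216 CD133+, with adjusted p up to 0.205.

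Taken over all lines, with line as a block, limma called 5 members higher and 2 lower in CD133+ cells, against 2.62% of all tested genes higher and 2.11% lower and 3.97% and 2.82% of those above the floor on all arrays. The 5 higher members (6.58%) were MRPL10, MRPL39, MRPL42, MRPS18C and MRPS23, and the 2 lower (2.63%) were MRPS5 and MRPL17. The members' median log2 change was 0.06 against -0.01 over all tested genes, and 48 of 76 were above 0. These calls treat the 2 arrays of a population as independent. When the 2 arrays were averaged first, leaving 1 value a population, no member passed (lowest adjusted p = 0.796 by limma). Many members shared that value. With 6 values, the fit has few residual degrees of freedom and little power, so the lack of calls says little about the members. At an unadjusted p under 0.05, 1 was higher and 1 lower, against 21 and 7 with single arrays. With population as a random block no member passed either (lowest adjusted p = 0.204), and 12 were higher and 5 lower at an unadjusted p under 0.05.

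MRPL10, which anchors the factor-binding stalk, read 529.7 and 519 on the CD133+ arrays and 346 and 234 on the CD133- arrays in KATO-III, 161 and 152 on the CD133+ arrays and 106 and 103 on the CD133- arrays in SNU-216, and 226 and 183 on the CD133+ arrays and 111 and 161 on the CD133- arrays in SNU-601. Within each line the CD133+ arrays were higher, and over all lines the level was 1.61-fold (log2 change 0.69 ± 0.14 (SE), adjusted p = 0.0233). MRPL42, a large subunit protein without a bacterial homologue, read 1672 and 1552 on the CD133+ arrays and 878 and 892 on the CD133- arrays in KATO-III (log2 change 0.86 ± 0.07 (SE), adjusted p = 2.23e-05). In SNU-216 it read 1125 and 997 on the CD133+ arrays and 764 and 817 on the CD133- arrays (log2 change 0.42 ± 0.07 (SE), adjusted p = 0.00198), and in SNU-601 1849.8 and 1774 on the CD133+ arrays and 1580 and 1658 on the CD133- arrays, a difference that was not called (log2 change 0.16 ± 0.07 (SE), adjusted p = 0.163). Over all lines MRPL42 was 1.4-fold (log2 change 0.48 ± 0.10 (SE), adjusted p = 0.03).

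MRPS23, a small subunit protein without a bacterial homologue, read 4242 and 4140.2 on the CD133+ arrays and 2846 and 3025 on the CD133- arrays in KATO-III and 3301 and 3312 on the CD133+ arrays and 2205 and 2125 on the CD133- arrays in SNU-216. In both lines the fractions were apart, with log2 changes of 0.51 and 0.61. In SNU-601 they overlapped, at 2485 and 2538 on the CD133+ arrays and 2427 and 2665 on the CD133- arrays, and the change over all lines was 0.37 ± 0.09 (SE, adjusted p = 0.0486 by limma). MRPS18C changed by 0.32 ± 0.08 over all lines (adjusted p = 0.0441) and by 0.18 and 0.15 in KATO-III and SNU-601, the latter not called (adjusted p = 0.078). MRPL39 changed by 0.33 ± 0.08 (adjusted p = 0.036).

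On the lower side, MRPS5 read 1359 and 1165 on the CD133+ arrays and 1675 and 1449.8 on the CD133- arrays in KATO-III and 3507 and 2812 on the CD133+ arrays and 3960.4 and 3791 on the CD133- arrays in SNU-216. Neither line called it alone, and over all lines it was 0.77 times the CD133- level (log2 change -0.38 ± 0.08 (SE), adjusted p = 0.0291). MRPL17, near the peptide exit, gave 3190.3 and 3286 on the CD133+ arrays and 3512 and 3873 on the CD133- arrays in KATO-III, 6757 and 6687 on the CD133+ arrays and 7360.3 and 7165 on the CD133- arrays in SNU-216 and 3166 and 3095 on the CD133+ arrays and 3614 and 3658 on the CD133- arrays in SNU-601. The CD133- arrays of each line lay above its CD133+ arrays, by little (log2 change -0.17 ± 0.04 (SE), adjusted p = 0.0497). These 7 calls were sensitive to single arrays. MRPL10 kept its call in 10 of the 12 fits that leave out 1 array, MRPS5 in 8, MRPL42 in 5, MRPL39 and MRPS23 in 3 each, and MRPL17 and MRPS18C in 0. The adjusted p rose at most to 0.0657 for MRPL10, lost without either KATO-III CD133+ array, and to 0.0773 for MRPS5, lost without KATO-III CD133+ replicate 2, KATO-III CD133- replicate 1, SNU-216 CD133+ replicate 2 or SNU-216 CD133- replicate 1. It reached 0.0808 for MRPL42, lost without any of the 4 KATO-III arrays, SNU-216 CD133+ replicate 1 or either SNU-216 CD133- array. MRPL39 (up to 0.0814) and MRPS23 (up to 0.118) lost it without any array but the 2 SNU-601 CD133+ arrays and SNU-601 CD133- replicate 2, and MRPS18C (up to 0.0943) and MRPL17 (up to 0.116) without any array at all.

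The study used a signal-to-noise ratio (SNR) with thresholds of 1 and -1, whose formula is not given in the sources used here. It was computed here as the difference of the means of the 6 CD133+ and 6 CD133- arrays over the sum of their SDs, which need not be the authors' formula. On linear intensities MRPL39 passed 1 with an SNR of 1.16, and no member passed -1, against 0.558% and 0.402% of all 34595 genes. With each line centred on its mean first, 9 members (11.8%) passed 1 and 4 (5.26%) passed -1, against 3.50% and 3.86% of all 34595 genes and 7.01% and 6.96% of those above the floor on all arrays. On the uncentred intensities, where 1 member passed 1 and 0 passed -1, leaving out SNU-601 CD133+ replicate 2 gave 2 and 1. Leaving out SNU-601 CD133- replicate 1 gave 2 and 0. The centred counts were not computed again without single arrays. Members whose 6 CD133+ arrays all lay above their 6 CD133- arrays were MRPL1 and MRPL39 (2.63%). The shares were 0.352% of tested genes and 0.480% of those above the floor on all arrays. None had them all below, against 0.169% and 0.197%. MRPL1 read 1038 and 801 on the CD133+ arrays and 739 and 669 on the CD133- arrays in SNU-216 (log2 change 0.37 ± 0.12 (SE), adjusted p = 0.0483) and 772 and 743 on the CD133+ arrays and 651 and 627 on the CD133- arrays in SNU-601 (log2 change 0.25 ± 0.12 (SE), adjusted p = 0.229). Over the 3 lines its fractions were barely apart, with the lowest CD133+ array at 743 (SNU-601) and the highest CD133- array at 739 (SNU-216). Within lines, the gap was far wider in KATO-III than in the others (interaction adjusted p = 0.00024). Over all lines the change of 0.80 missed the threshold (adjusted p = 0.0595 by limma).

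Most members differed between the lines themselves. The F-test of the line means passed for 72 of 76 members (94.7%), against 72.3% of all tested genes and 85.2% of those above the floor on all arrays, and the 4 that missed it were MRPL37, MRPL47, MRPS22 and MRPS30. The members' median log2 intensity on an array was 11.80 and 11.82 in KATO-III CD133+ cells and 11.62 and 11.70 in CD133- cells. It was 11.71 and 11.66 in SNU-216 CD133+ cells and 11.69 and 11.73 in CD133- cells. In SNU-601 it was lower on all 4 arrays, at 11.26 and 11.24 in CD133+ cells and 11.39 in both of CD133- cells. SNU-601 had the lowest line mean for 44 members and KATO-III the highest for 34. In the pairwise contrasts 50 members (65.8%) were higher and 15 (19.7%) lower in KATO-III than in SNU-601. The shares were 28.7% and 29.9% of all tested genes, and 34.6% and 36.7% of those above the floor on all arrays. In SNU-216, 44 (57.9%) were higher and 14 (18.4%) lower than in SNU-601, against 29.4% and 27.1%, and 37.4% and 33.4%. Between KATO-III and SNU-216, 35 (46.1%) were higher and 29 (38.2%) lower in KATO-III, against 30.3% and 31.7%, and 34.5% and 38.2%. Each line is a single line, so these are differences between these lines.

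The 5 members with the widest range of line means differed 2.79- to 3.44-fold between lines. MRPS35, a small subunit protein, ranged over 3.44-fold, with 4752 and 4451 on the CD133+ arrays and 3006 and 2976 on the CD133- arrays in KATO-III, 1486 and 1215 on the CD133+ arrays and 1024 and 926 on the CD133- arrays in SNU-216 and 3470.1 and 3549 on the CD133+ arrays and 4112 and 4756 on the CD133- arrays in SNU-601. SNU-216 was thus the low line, with no overlap with the other lines. MRPL50, without a bacterial homologue, was lowest in SNU-601, where the 4 arrays spanned 1057 to 1307, and highest in KATO-III CD133+ cells at 5429 and 5542 (3.4-fold between the line means). MRPS26 was instead high in SNU-216, at 5389 to 6085, and lowest in SNU-601 (3.08-fold). MRPL10 was 3.02-fold higher in KATO-III than in SNU-216, and MRPL15 2.79-fold higher in SNU-216 than in SNU-601.

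**Figure D4:**
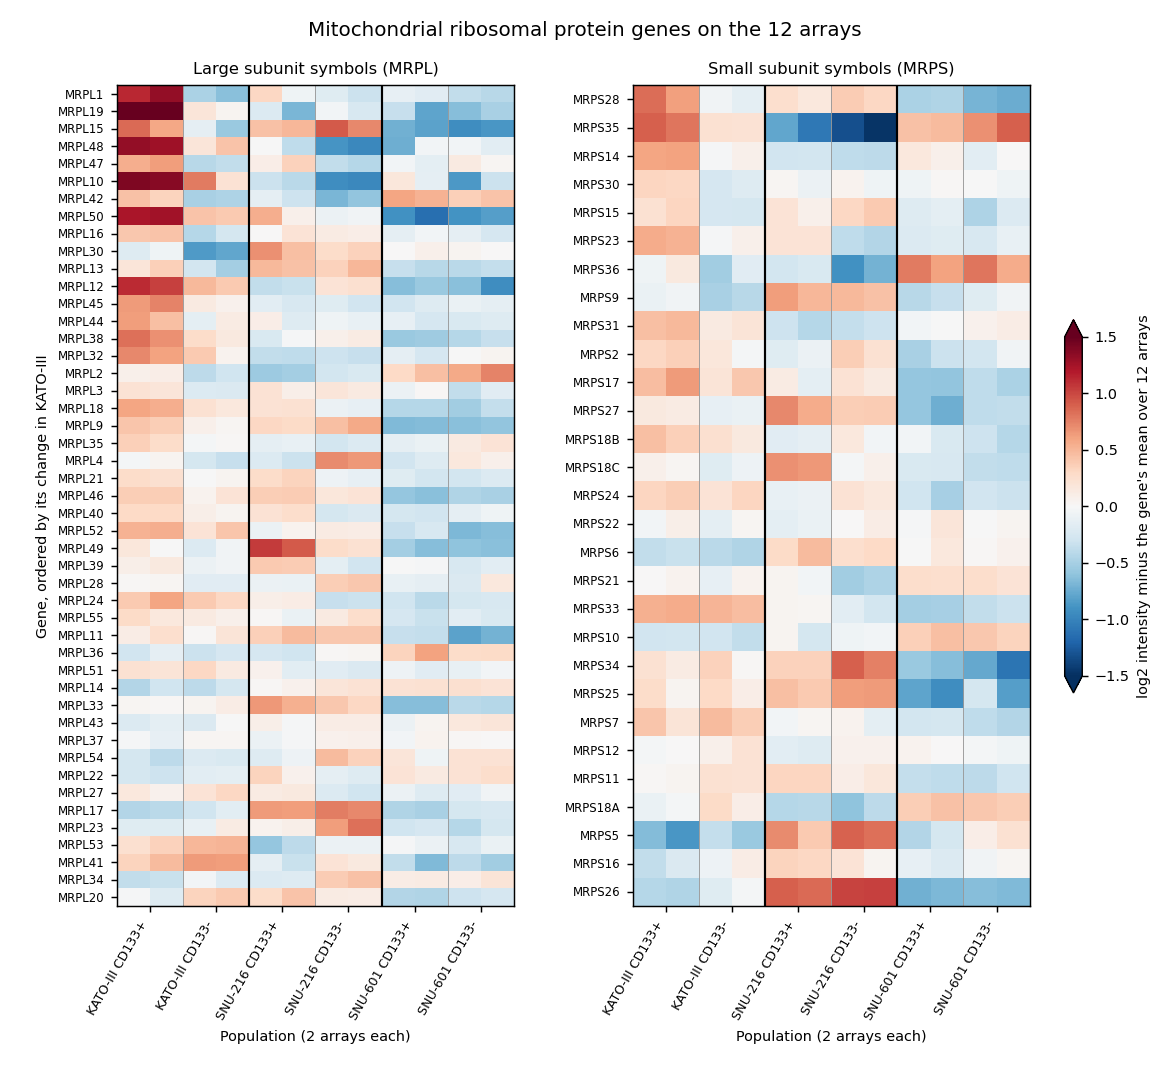
log2 intensity of the 76 genes (y axis, 47 MRPL left and 29 MRPS right) on the 12 arrays (x axis, 2 for each population), with each gene's mean over the arrays subtracted (colour scale from -1.5 to 1.5). Black lines part the cell lines, and blue predominates in the SNU-601 columns, where 44 members had their lowest line mean.

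Other genes of mitochondrial gene expression were counted by lists drawn up by function. Of all tested genes 18.7% rose and 20.6% fell in KATO-III, 14.6% and 14.0% in SNU-216, and 8.59% and 7.78% in SNU-601. Among genes above the floor on all arrays these shares were 24.0% and 27.4%, 20.1% and 20.0%, and 12.0% and 10.4%. Of 7 tested mitoribosomal proteins under other symbols, 4 (57.1%) rose and 1 (14.3%) fell in KATO-III, and 3 (42.9%) fell in SNU-216. CHCHD1, a small subunit protein, rose in KATO-III from a mean of 838 in CD133- to 1328 in CD133+ cells (log2 change 0.66 ± 0.07 (SE), adjusted p = 0.000124). ICT1, a peptidyl-tRNA hydrolase built into the large subunit, rose there by 0.44 and fell by 0.26 in SNU-216 on the log2 scale (adjusted p = 0.000253 and 0.00655 by limma). GADD45GIP1 averaged 94.2 in KATO-III CD133+ cells and lay under the floor in CD133- cells, so its change there has no measured size.

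Among 17 translation factors of mitochondria, 7 (41.2%) rose and 3 (17.6%) fell in KATO-III. In SNU-216, 3 (17.6%) rose and 1 (5.88%) fell, and in SNU-601 3 (17.6%) fell. GFM1, the elongation factor that moves the ribosome along the mRNA, went from 2936 to 4627 in KATO-III (log2 change 0.65 ± 0.08 (SE), adjusted p = 0.000172). GFM2, which helps to recycle ribosomes, rose by 0.77, the release factor family member MTRF1 by 0.78, and MTFMT, which formylates the initiator tRNA, by 0.63 on the log2 scale in that line (adjusted p = 0.000221, 0.00139 and 0.00743 by limma). Of 21 assembly and rRNA modification factors, 7 (33.3%) rose and 2 (9.52%) fell in KATO-III. In SNU-216, 3 (14.3%) rose and 5 (23.8%) fell, and in SNU-601 2 (9.52%) rose. The lowest log2 changes in this list were -0.74 in KATO-III and -0.81 in SNU-216. MTERFD1, which binds mitochondrial DNA and acts in ribosome assembly, rose by 0.71 in KATO-III (adjusted p = 1.38e-05 by limma), and PTCD1, an RNA-binding protein, fell by 0.33 there and by 0.72 in SNU-216 on the log2 scale (adjusted p = 0.0183 and 0.000465). GRSF1, an RNA-binding protein of mitochondrial RNA granules named here after its values were seen, was the list's 1 gene higher over all lines, with log2 changes of 0.18, 0.42 and 0.27 in KATO-III, SNU-216 and SNU-601 (adjusted p = 0.0207, 0.000423 and 0.00811 by limma).

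In the list of 11 genes for transcription and maintenance of mitochondrial DNA and RNA, 6 (54.5%) rose and 1 (9.09%) fell in KATO-III. In SNU-216, 1 (9.09%) rose and 3 (27.3%) fell, and in SNU-601 3 (27.3%) fell. TFAM, which packages mitochondrial DNA and starts its transcription, rose from 2402 to 3786 in KATO-III (log2 change 0.66 ± 0.04 (SE), adjusted p = 6.47e-06) and from 3498 to 5268 in SNU-216 (log2 change 0.59 ± 0.04 (SE), adjusted p = 2.43e-05). In SNU-601 its means were 3604 in CD133+ and 3612 in CD133- cells. TFB2M, the transcription initiation factor, rose by 0.76 in KATO-III and fell by 0.30 in SNU-601 (adjusted p = 0.000107 and 0.039 by limma). POLG2, the accessory subunit of the mitochondrial DNA polymerase, rose by 0.68 in KATO-III, and PNPT1, an RNA-degrading enzyme, fell by 0.76 there and by 0.55 in SNU-216 on the log2 scale (adjusted p = 0.000122, 0.000206 and 0.00205).

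Cytosolic ribosomal protein genes and oxidative phosphorylation genes were counted beside these. Of 81 tested cytosolic ribosomal genes, 13 (16%) rose and 8 (9.88%) fell in KATO-III (median 0.00). In SNU-216, 10 (12.3%) rose and 5 (6.17%) fell, and in SNU-601 2 (2.47%) rose and 6 (7.41%) fell. Of 74 nuclear genes of oxidative phosphorylation, 15 (20.3%) rose and 11 (14.9%) fell in KATO-III (median 0.02). In SNU-216, 14 (18.9%) rose and 12 (16.2%) fell, and in SNU-601 5 (6.76%) rose and 8 (10.8%) fell. Shares of all tested genes were 18.7% and 20.6% in KATO-III, 14.6% and 14.0% in SNU-216, and 8.59% and 7.78% in SNU-601. Among genes above the floor on all arrays they were 24.0% and 27.4%, 20.1% and 20.0%, and 12.0% and 10.4%. Both lists had a median close to 0 in KATO-III, where that of the mitochondrial ribosomal genes was 0.22 and that of MRPS genes alone 0.09. It was 0.33 for the 38 dimmer members and 0.09 for the 38 brighter ones. The median size of a change without its sign also differed, at 0.11 for cytosolic ribosomal, 0.13 for oxidative phosphorylation and 0.25 for mitochondrial ribosomal genes. The lists were not matched for intensity. The other lists also had medians above 0 in KATO-III. These were 0.33 for mitoribosomal proteins under other symbols, 0.20 for transcription and maintenance, 0.11 for assembly and rRNA modification, and 0.09 for translation factors. Single genes of the cytosolic ribosomal and oxidative phosphorylation lists nevertheless rose more than 2-fold in KATO-III. NDUFC1, a complex I subunit, went from 1596 to 4886 in KATO-III (log2 change 1.61 ± 0.05 (SE), adjusted p = 1.75e-07), and SDHD, a complex II subunit, from 1977 to 5540 (log2 change 1.48 ± 0.17 (SE), adjusted p = 0.000168). RPL23, of the cytosolic large subunit, went from 2615 to 5425 (log2 change 1.05 ± 0.14 (SE), adjusted p = 0.000332). There were falls too. The lowest log2 changes of oxidative phosphorylation genes were -0.64 in KATO-III, -0.88 in SNU-216 and -0.60 in SNU-601. For cytosolic ribosomal genes they were -0.27, -0.76 and -0.48 in the same order. The interaction of line and fraction passed for 24 of the 81 cytosolic ribosomal genes (29.6%) and 32 of the 74 oxidative phosphorylation genes (43.2%). Over all tested genes the share was 44.4%, and among those above the floor on all arrays it was 58.5%.

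**Figure D5:**
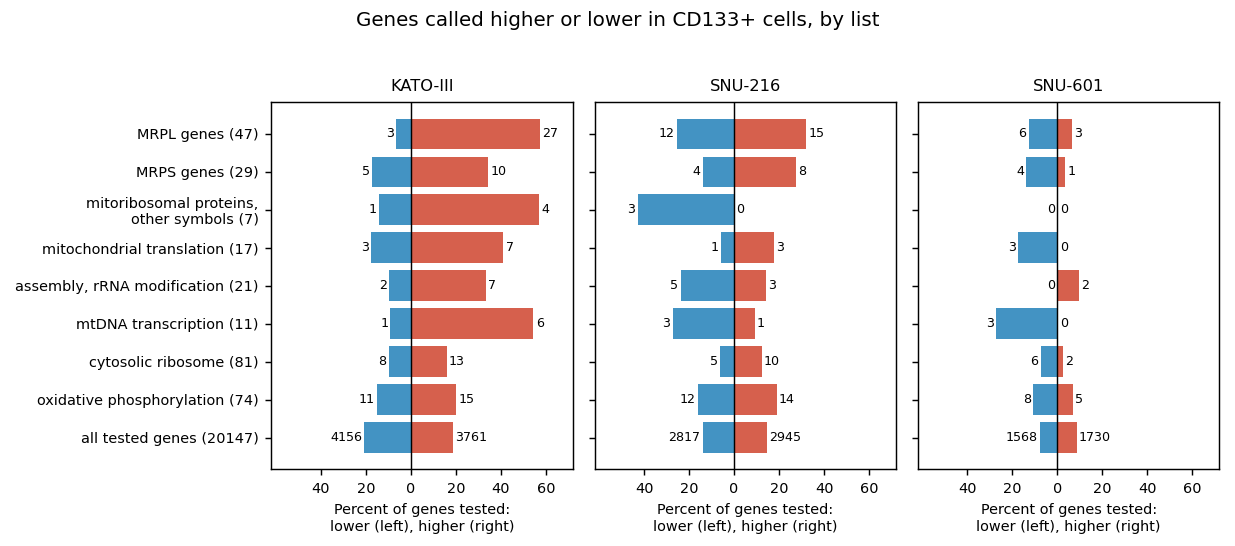
Percent of the tested genes of each list (y axis, number tested in parentheses) called higher (red, right) or lower (blue, left) in CD133+ than in CD133- cells (x axis) by limma in each line, with the number of genes at each bar. In KATO-III 27 of 47 MRPL genes were higher and 3 lower, against 3761 and 4156 of all 20147 tested genes.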

How the data were processed

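RNA of sorted cells was hybridized to Illumina HT-12 v3 BeadChips, 12 arrays in 6 populations of 2, grouped by their labels. The deposited values are linear intensities with a row for each gene symbol, from 34688 rows of which 93 are empty. Per the study's methods they were quantile-normalized by the authors, and the submitters' processing notes name BeadStudio. The 32.1% of values at or below 0 show a subtracted background. The rule that merged several probes into 1 row is not given in the sources used here. Quantile normalization brings all arrays to the same distribution, so a shift in RNA common to all genes cannot be seen. The deposited rows still differed a little, with a median intensity from 26.0 (KATO-III CD133+ replicate 1) to 27.1 (SNU-601 CD133- replicate 1). No slide or scan is named, so these could not be tested as batches.

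The floor of 32.7 equals the 1st percentile of all values with its sign dropped. Tests ran on log2 intensities in R 4.3.3 with limma 3.58.1 (mean-variance trend, Benjamini-Hochberg over 20147 genes, adjusted p of 0.05). The fit over all lines had line as a block and 8 residual degrees of freedom. Contrasts within lines, the interaction and the line means came from a fit with a mean for each population and 6 residual degrees of freedom. Promoters and figures were handled in Python 3.11.15 with pandas 2.3.3 and matplotlib 3.10.9.

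Named are members called over all lines, the 4 highest and 4 lowest called in each line, those called alike in all lines or with fractions apart or past an SNR threshold, and the 5 with the widest range of line means. From each further list up to 4 genes with large changes are named, not always the largest. The members and lists were chosen with earlier results of these data known. Alternatives covered the floor, an offset, centring, a repeated quantile normalization, the filter, the trend, blocks, thresholds and leaving out each array. Replicate numbers were checked for pairing over 15 pairs of populations, and the deviations correlated by -0.016 to 0.068. The scripts were tested on simulated data.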

Additional observations from a re-analysis of the deposited data

Results flagged for a closer look

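By the interaction test of limma, 59 of the 76 genes changed differently between the fractions from line to line, among them 24 of the 28 named members. The values below are the range of a gene's log2 change over the 3 lines, highest minus lowest.

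For MRPL1, MRPL15, MRPL19, MRPL42, MRPL48, MRPL50, MRPL47, MRPS28 and MRPS35 this range was 1.53, 1.40, 1.81, 0.70, 1.28, 0.99, 1.16, 0.97 and 0.95 in that order, and the change was largest in KATO-III in each. For MRPL12, MRPL2, MRPL20, MRPL35 and MRPL4 this range was 1.21, 0.72, 0.70, 0.61 and 1.25 in that order, and each of these genes was called higher in 1 line and lower in another. For MRPL23, MRPL34, MRPL39, MRPL49, MRPS18C and MRPS23 this range was 0.72, 0.58, 0.43, 0.69, 0.50 and 0.63 in that order, and the change was of the largest size in SNU-216 in each. For MRPL11, MRPL52, MRPS16 and MRPS26 this range was 0.39, 0.50, 0.51 and 0.28 in that order, and the largest change was in SNU-601 for MRPL11 and MRPL52 and in KATO-III for MRPS16 and MRPS26. Which property of the lines goes with these differences was not tested.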

How the results depend on the processing

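No result reversed. Directions held under the floors, the offset, centring, the repeated quantile normalization, the filters and the model without a trend, except for medians near 0. The counts over all lines were the least stable. Instead of 5 higher members, the fits gave 3 (floor of 16), 8 (genes above the floor on all arrays, 11674 tested), 1 (no filter, 34595 tested), 2 (no trend), 1 (replicate block), and 0 (adjusted p of 0.01, population means, or population as a random block). Instead of 2 lower, they gave 1 (floor of 16, offset, centred arrays, repeated quantile normalization, no filter, no trend, replicate block) and 0 (adjusted p of 0.01, population means, random block). In KATO-III, 8 lower became 5 without a trend and 3 at an adjusted p of 0.01, and in SNU-216, 16 lower became 8 at 0.01. In SNU-601, 4 higher became 2 (floor of 16, no filter, no trend), 8 (genes above the floor on all arrays) and 1 (0.01), and 10 lower became 6 (no filter), 4 (no trend) and 1 (0.01). Centring the arrays moved the median change to 0.26 in KATO-III and from -0.021 to 0.0123 in SNU-601. With each line centred, 9 members passed an SNR of 1 and 4 passed -1. The causes of these shifts were not tested.

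Leaving out 1 array at a time gave 0 to 6 higher and 0 to 2 lower over all lines, 32 to 38 and 3 to 9 in KATO-III, 15 to 22 and 10 to 18 in SNU-216, and 1 to 4 and 2 to 11 in SNU-601. The median change ranged from 0.18 to 0.23 in KATO-III, from -0.0283 to 0.0352 in SNU-216 and from -0.05 to -0.01 in SNU-601. The interaction held for 51 to 58 members and the line F-test for 70 to 72. On uncentred linear intensities 1 to 2 passed an SNR of 1 and 0 to 1 an SNR of -1. For the higher count over all lines the lowest values came without either KATO-III CD133+ array (0), and for the lower count without KATO-III CD133+ replicate 2, KATO-III CD133- replicate 1, SNU-216 CD133+ replicate 2 or SNU-216 CD133- replicate 1 (0). Same-numbered replicates did not deviate together, and the replicate block gave 38 higher and 8 lower in KATO-III, 23 and 18 in SNU-216, 5 and 9 in SNU-601, 60 with an interaction and 71 that differ between lines. All members lay above the floor on all arrays, and the 2 arrays of each population limit the precision. The SE of a change within a line was 0.218 for the dim member MRPL10 and 0.0426 for MRPS11, so precision was not equal over the range of signal.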
